A study of Mus musculus with 22 samples.

Results

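Immediate early genes are transcribed within minutes of a stimulus, without the need for new protein. Of this class, the 10 genes Fos, Fosb, Fosl1, Jun, Junb, Jund, Egr1, Atf3, Ier2 and Dusp1 were followed here by name in every count file, out of 17541 genes listed. The files come from the esophageal epithelium of 13 C57BL6 mice, profiled cell by cell with inDrop, a droplet method that counts transcripts by unique molecular identifiers (UMIs). Controls were 6 untreated mice, of which C1, C2 and C6 were young (3 to 4 months) and C3, C4 and C5 old (18 to 20 months). EoE-like inflammation was induced in 4 mice with MC903, a vitamin D analog put on the ears together with the allergen ovalbumin for 12 days, and with ovalbumin by mouth from day 15 to day 32. Mice E9 and E10 were young at 6 to 8 weeks, and E11 and E12 were old at 19 to 20 months. ESCC was induced in 3 mice of 8 to 10 months (T8M, T17F and T17M) with the carcinogen 4NQO in drinking water for 16 weeks, followed by 8 weeks without it. The labels give no engineered allele for any mouse. The epithelium of all groups was freed by the same digestion at 37 °C, and how far handling moved the levels was not tested.

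AP-1 is a dimer of a Jun protein with a Fos, Jun or ATF protein, and binds the TRE and CRE elements of target genes. Mitogens, cytokines, wounding and stress act through MAP kinases on factors already bound at the Fos and Egr1 promoters, and the transcripts that follow are short-lived. In stratified epithelium, AP-1 proteins are known regulators of keratinocyte proliferation, differentiation and inflammation. Fos, Fosb and Fosl1 encode Fos proteins, and Jun, Junb and Jund encode Jun proteins. Atf3 encodes a stress-induced partner of Jun proteins, Egr1 a zinc finger factor and Ier2 a small nuclear protein. Dusp1 encodes a phosphatase that switches MAP kinases off and so ends the response. The genes Jun, Jund and Ier2 have no intron in GENCODE M21, and the principal transcript of Junb has none either. The other 6 genes have introns.

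RefSeq promoter windows of GRCm38.p6, from 250 bases before to 50 bases after the start of the gene, were at hand for 7 of the 10 genes. They are shown for Fos, Jun, Junb and Dusp1, since Fos and Jun encode the classical AP-1 pair and Junb and Dusp1 were the genes farthest below controls in EoE. Capitals mark every match, on either strand, to the CRE (TGACGTCA), its core TGACG, the proximal Jun site TGACATCA, the TRE (TGACTCA) or TATAAA.
Fos, chr12:85473640-85473939, plus strand: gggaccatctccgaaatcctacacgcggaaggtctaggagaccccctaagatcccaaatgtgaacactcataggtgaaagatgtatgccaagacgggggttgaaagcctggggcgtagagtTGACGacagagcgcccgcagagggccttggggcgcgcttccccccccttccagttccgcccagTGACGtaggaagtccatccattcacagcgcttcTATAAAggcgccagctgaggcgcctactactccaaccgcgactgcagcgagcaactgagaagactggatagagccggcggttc
Jun, chr4:95052173-95052472, minus strand: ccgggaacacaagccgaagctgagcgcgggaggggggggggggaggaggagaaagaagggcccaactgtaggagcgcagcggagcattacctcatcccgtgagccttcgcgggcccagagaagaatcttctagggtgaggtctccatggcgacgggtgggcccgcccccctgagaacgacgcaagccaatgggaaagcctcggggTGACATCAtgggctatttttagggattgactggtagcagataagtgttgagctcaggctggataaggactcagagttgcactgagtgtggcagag
Junb, chr8:84978699-84978998, minus strand: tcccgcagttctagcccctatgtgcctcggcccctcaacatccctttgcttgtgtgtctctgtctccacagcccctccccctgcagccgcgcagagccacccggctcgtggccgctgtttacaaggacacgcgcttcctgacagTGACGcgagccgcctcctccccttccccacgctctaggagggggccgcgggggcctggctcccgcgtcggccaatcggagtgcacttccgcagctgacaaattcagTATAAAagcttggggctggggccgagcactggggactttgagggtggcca
Dusp1, chr17:26508423-26508722, minus strand: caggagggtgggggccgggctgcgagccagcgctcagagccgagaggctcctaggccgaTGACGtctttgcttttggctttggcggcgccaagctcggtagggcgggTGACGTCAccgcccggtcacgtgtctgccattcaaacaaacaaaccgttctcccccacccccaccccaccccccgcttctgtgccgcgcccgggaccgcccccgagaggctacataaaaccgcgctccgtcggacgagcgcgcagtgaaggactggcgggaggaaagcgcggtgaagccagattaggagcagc
The Dusp1 window held a full CRE that began at base -143 from the start, as did 1.79% of 32851 promoter windows, and TGACG cores at -191, -143 and -140, of which the last pair lies inside that CRE. The Fos window held TGACG cores at -129 and -66 and TATAAA at -33. The Jun window held no TGACG core but the proximal Jun site at -45, found in 3.62% of windows. The Junb window held a TGACG core at -106 and TATAAA at base 1. TGACG cores occurred in 20.8% of all windows and TATAAA in 13.6%. None of these 4 windows, nor those of Fosb, Atf3 and Jund, matched the TRE (5.20% of all windows) or the CArG box of serum response factor (1.63%). Elements more than 250 bases before the start were not looked at, so these genes cannot be said to lack them. Fosb and Atf3 had 1 TGACG core each, at -60 and -7, and the Jund window matched none of these motifs. That window ends at base 70697788 of chr8, before the start of Jund in GENCODE M21 at 70698949. It therefore does not cover the promoter of that start. For Junb the positions given above count from the RefSeq start. GENCODE M21 puts the start of Junb farther downstream, at 84978718 of chr8, which is still inside the window. Both Junb matches therefore lie before the GENCODE start, and neither lies on it.

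Of 4500 deposited cells, 3103 lay within 250 to 3500 genes and 100 to 9500 UMIs and were not called non-epithelial, namely 1493 control, 143 EoE and 1467 ESCC cells. The UMIs of these cells were summed per mouse, and levels are given as CPM, the counts of a gene scaled to a common total per mouse. Control mice gave 111043 to 427752 UMIs, ESCC mice 1231048 to 2095454 and EoE mice only 6245 (E11, with 11 cells) to 41909. Median UMIs per cell were 3108 for ESCC, 990 for controls and 519 for EoE. Within 9 mice with 2 libraries, 239 barcodes occurred in both libraries, and for all of them the best-matching barcode of the other library was the same one, so libraries were summed and mice counted once. The libraries of 1 mouse gave close levels, with a median ratio of the larger to the smaller between 1.04 for Ier2 and 1.18 for Atf3. The labels name no batch, so a batch, age and depth cannot be told apart from the ESCC condition. Summed levels also cannot tell fewer cells of a type from less RNA per cell, which the levels by cell class below address in part. Most clusters of control cells were led by keratinocyte genes, such as Krt5, Krt14 and Krt15, Krtdap and Krt4, Sprr3 and Cnfn, or Krt1 and Krt10. Another was led by cell cycle genes such as Top2a. The identity of EoE and ESCC cells was not checked in this way. Eosinophil and mast cell markers summed to 1 UMI over all 3 groups, after cells rich in non-epithelial markers had been left out. Only 8 of 12 such markers were listed, and the eosinophil gene Epx was not. The sum therefore cannot tell whether eosinophils were present.

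Fosl1 and Jund could not be followed, with 2 UMIs each in all deposited cells. Both genes were at 0 UMIs in all control and EoE cells used. A count of 0 allowed a level of up to 480 CPM in E11 and 7.01 CPM in C4 (3 UMIs of the mouse's total, counting error alone). The last 300 exonic bases of Fosl1 all lie under Ccdc85b on the opposite strand, and 62.4% of its exonic bases do so in total. For Jund, 52.6% of exonic bases lie under an antisense gene, Gm11175, that the files do not list. Strand use in counting is not given in the sources used here, and the part of these overlaps in the low counts was not tested. The remaining 8 genes passed the filter on low counts in every comparison below.

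The ESCC mice were compared with controls to ask how carcinogen-induced disease shifts the immediate early genes, and all 8 tested genes were lower there than in controls (edgeR quasi-likelihood test over 5863 genes, Benjamini-Hochberg adjustment). Of all genes tested, 16.4% were called lower, and the median log2 fold change was 0.01 over all genes against -0.99 over the 8. Of all calls, 52.2% were higher in ESCC, which became 63.5% with RLE size factors and 34.3% with mice scaled by total UMIs, where the median of all genes moved to 0.12 and -0.17. The genes that fell most were Egr1, Fosb and Fos. Levels below are plain CPM, while fold changes use TMM factors of 0.760 to 0.782 in ESCC, 0.835 to 0.966 in controls and 1.08 to 2.44 in EoE, so that the 2 scales can order mice differently. In CPM, 6 of the 8 genes had every ESCC mouse below every control mouse, as had 17.6% of genes tested. The exceptions were Atf3 and Ier2. In CPM divided by the TMM factors of the fit, 5 of the 8 did (10.2% of genes), and Jun overlapped too.

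Fos, the founding Fos subunit, was at 5189, 4972, 4629, 6422, 5663 and 4216 CPM in C1 to C6, and at 1222, 1446 and 1894 CPM in T17F, T17M and T8M. The ESCC mice lay below all controls, at a mean of 29.4% of the control mean. Its log2 fold change was -1.57 ± 0.27 (SE, edgeR adjusted p = 3.61e-05). Fosb, its paralog, ranged in controls from 729 to 2071 CPM with a median of 1125. In ESCC it was at 251, 324 and 335 CPM, again without overlap. The log2 fold change was -1.95 ± 0.28 (edgeR adjusted p = 1.70e-06).

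Jun fell less. Control mice ranged from 1814 to 3224 CPM (median 2310), and the ESCC mice were at 1027, 1042 and 1627 CPM. The groups did not overlap in CPM, but over the TMM factors T8M (2140) passed the lowest control (2053). The log2 fold change was -0.79 ± 0.25 (edgeR adjusted p = 0.0139). Junb, which forms dimers that are weaker activators than those of Jun, ranged from 1124 to 1810 CPM in controls (median 1465), and was at 583, 602 and 716 CPM in ESCC. Its log2 fold change was -1.03 ± 0.23 (edgeR adjusted p = 0.000633). The UMIs of Fos and Fosb per UMI of Jun and Junb were 1.69 ± 0.37 (SD, n = 6) in controls and 0.981 ± 0.085 (n = 3) in ESCC. C3, at 1.06, lay within the ESCC range of 0.915 to 1.08.

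Egr1, outside AP-1, had the largest fall of the 8 genes. It ranged from 1238 to 2150 CPM in controls (median 1682) and was at 253, 299 and 504 CPM in T17F, T17M and T8M. The log2 fold change was -2.09 ± 0.25 (edgeR adjusted p = 9.36e-08). Dusp1, the MAP kinase phosphatase, ranged from 1543 to 1978 CPM in controls (median 1733) and was at 631, 713 and 1040 CPM in ESCC. It differed by -0.94 ± 0.22 on the log2 scale (edgeR adjusted p = 0.00109).

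Atf3 and Ier2 were the weakest cases. Atf3 ranged from 457 to 1054 CPM in controls (median 650), and was at 255, 283 and 515 CPM in ESCC, so that T8M reached into the control range. Its log2 fold change was -0.76 ± 0.25 (edgeR adjusted p = 0.0173). Ier2 ranged from 287 to 513 CPM in controls (median 377), and was at 174, 195 and 322 CPM in ESCC, where T8M again overlapped. Its log2 fold change was -0.60 ± 0.22 (edgeR adjusted p = 0.0345). T8M had the highest level of the 3 ESCC mice for each of the 8 genes. Without T17F 4 of the 8 genes were called and without T17M 5, with Atf3, Jun and Ier2 lost in both cases and Dusp1 without T17F. Ier2 was also lost without C4 or C5, and Jun without C5. In another setting, cells were thinned to 500 UMIs and those with fewer were left out. This kept 1458 of 1493 control, 74 of 143 EoE and all 1467 ESCC cells. With these thinned cells, 7 of the 8 were called and Ier2 was not (log2 fold change -0.41, edgeR adjusted p = 0.196). DESeq2 called neither Ier2 nor Atf3. Ier2 was also lost with RLE factors (edgeR adjusted p = 0.0883), without the filter on low counts (edgeR adjusted p = 0.0539) and without the limits per cell (edgeR adjusted p = 0.0624). In all, Ier2 was called in 9 of 18 alternatives.

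**Figure D1:**
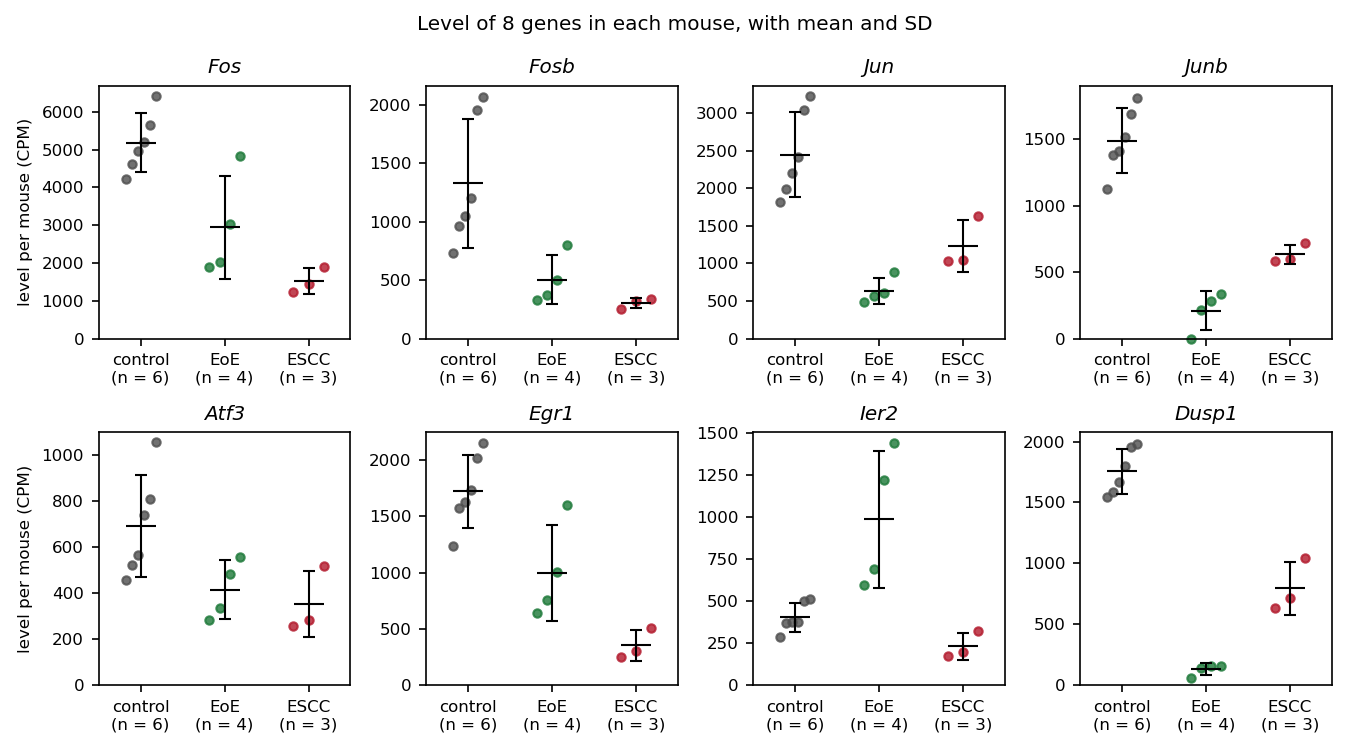
Level of 8 genes in each mouse (points, CPM on a linear axis from 0) by condition, with the mean and SD over mice (black). ESCC mice lie below every control mouse for 6 genes, with overlap in Atf3 and Ier2. In these plain CPM the EoE mice lie above every control mouse for Ier2, which does not hold over TMM factors, where E9 (531) is below C5 (577).

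Leukocyte markers moved with the ESCC condition too. All 15 had a UMI in the ESCC cells used and summed to between 147 and 242 CPM per mouse, against 31.5 to 73.6 CPM in controls. In EoE all 15 were at 0, which allowed up to 71.6 CPM in E10 and 480 CPM in E11 (3 UMIs, counting error alone). Whether EoE lay below controls was not tested. Ptprc, which marks all leukocytes, had 34 UMIs in ESCC and none in controls. The 8 genes were called lower in ESCC whether cells called non-epithelial were left out or kept. Heat shock genes, which rise when cells are stressed, summed to overlapping ranges: 7022 to 9105 CPM in controls, 5901 to 9091 in EoE and 7769 to 9225 in ESCC.

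In EoE, 7 of the 8 genes were lower than in controls and Ier2 was higher. The same controls entered this comparison and that of ESCC. Of all genes tested, 24.9% were called lower and 9.5% higher, and the median log2 fold change of all genes was -0.74, so that a gene at the middle of the distribution was itself below 0. That median was -0.60 when mice were scaled by total UMIs in place of TMM and -0.97 with RLE factors. Differences are therefore also given relative to it. In plain CPM every EoE mouse lay below every control mouse for 3 of the 8 genes (Dusp1, Junb and Jun), as for 26.5% of genes tested. Over the TMM factors this was so for 7 of the 8, all but Ier2, and for 36.2% of genes tested. E11 and E12 moved most between the scales, with factors of 2.44 and 1.45.

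Dusp1 showed the largest difference. It had 5, 6, 1 and 1 UMIs in E9, E10, E11 and E12, or 157, 143, 160 and 55.7 CPM, against at least 1543 CPM in each control. The log2 fold change was -3.89 ± 0.34 (edgeR adjusted p = 2.74e-10), and -3.15 relative to the median of all genes. Junb had 9, 9, 0 and 6 UMIs, or 283, 215, 0 and 334 CPM. The control range began at 1124 CPM, above all of these and above the 480 CPM that the 0 in E11 allows. Its log2 fold change was -2.78 ± 0.32 (edgeR adjusted p = 6.16e-08), and -2.04 relative to the median. Jun was at 565, 883, 480 and 612 CPM in E9 to E12, again below all controls, with a log2 fold change of -2.03 ± 0.29 (edgeR adjusted p = 2.42e-06). Without the limits on genes and UMIs per cell, with which 143 of 1500 EoE cells were used, the log2 fold change of Jun was -1.06, still past the test.

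Both Fos genes were less apart. Fos was at 1883, 2028, 3042 and 4843 CPM in E9, E10, E11 and E12. The first 3 lay below every control and E12 within their range, whereas over the TMM factors the highest EoE value (3333) was below the lowest control (4773). The log2 fold change was -1.11 ± 0.26 (edgeR adjusted p = 0.00155), of which -0.37 remained relative to the median of all genes. Fosb was at 377, 334, 801 and 501 CPM, with E11 inside the control range in CPM alone, and a log2 fold change of -1.85 ± 0.34 (edgeR adjusted p = 0.000109). Without the limits per cell, Fos was at -0.53 and Fosb at -1.01, and both passed. Egr1 was at 753, 644, 1601 and 1002 CPM, and Atf3 at 283, 334, 480 and 557 CPM. Their log2 fold changes were -1.20 ± 0.27 for Egr1 (edgeR adjusted p = 0.00107) and -1.04 ± 0.35 for Atf3 (edgeR adjusted p = 0.0206), which came to -0.46 and -0.30 relative to the median. In plain CPM E12 and E11 lay within the control range of Atf3, as did E11 for Egr1. Over the TMM factors none did, with at most 383 for Atf3 and 690 for Egr1 in EoE against at least 517 and 1401 in controls. The Atf3 call was lost without E9 (edgeR adjusted p = 0.0585) or E10 (edgeR adjusted p = 0.0957). Without the limits on genes and UMIs per cell, Atf3 differed by -0.12 (edgeR adjusted p = 0.722).

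Ier2, an intronless gene, went the other way. It was at 596, 692, 1441 and 1225 CPM in E9, E10, E11 and E12, from 19, 29, 9 and 22 UMIs, and each value lay above the highest control (513 CPM). Over the TMM factors the values were 531, 642, 590 and 843, and E9 lay below C5 (577) and level with C3. The log2 fold change was 0.90 ± 0.27 (edgeR adjusted p = 0.0106), and 1.64 relative to the median of all genes. The call was lost with DESeq2 (0.68, adjusted p = 0.0579), without the filter on low counts (0.53, edgeR adjusted p = 0.181), with thinned cells (0.63, edgeR adjusted p = 0.125) and without E12 (0.68, edgeR adjusted p = 0.0893), with the same direction in each. Without the limits on genes and UMIs per cell the log2 fold change of Ier2 was 1.72. Of 92 tested genes whose principal transcripts have 1 exon, 18.5% were called higher in EoE, against 9.27% of 5696 genes with several exons. In ESCC 25.0% of the former and 16.3% of the latter were called lower. Jun and Junb, also intronless, were lower in both diseases.

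**Figure D2:**
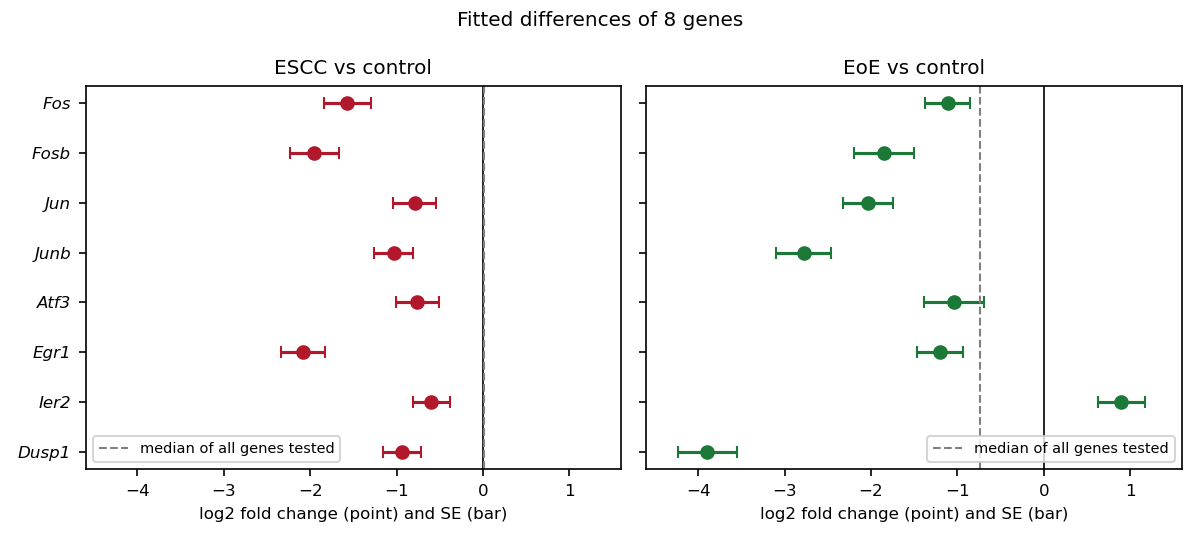
Fitted log2 fold change of each gene (point) with its standard error (bar) in ESCC and in EoE against the same controls, with the median of all 5863 genes tested as a dashed line. All 8 genes lie left of 0 in ESCC. In EoE Fos, Egr1 and Atf3 lie close to the dashed line at -0.74, Dusp1 lies farthest left and Ier2 right of 0.

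In plain CPM the 2 old EoE mice had higher levels than the 2 young ones for Fos, Fosb, Egr1, Atf3 and Ier2, but over the TMM factors E11 was below at least 1 young mouse for each of these genes. With 2 mice per age no test was made. In controls, old mice had higher fitted levels than young ones for all 8 genes, with log2 fold changes from 0.06 for Dusp1 to 0.78 for Atf3, but none passed the test (edgeR, 0 of 8, with 4 at an unadjusted p under 0.05, and 0 of 8 with DESeq2). The gene with the smallest edgeR adjusted p was Atf3, at 514 ± 53.9 CPM in young and 866 ± 166 CPM in old mice (SD, n = 3 each, edgeR adjusted p = 0.434). Of 5149 genes tested, 0.0971% were called between the ages. With age as a term in the fit of control and EoE mice, the same 7 genes were lower and Ier2 was higher.

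The mice with ESCC and EoE also differed from each other. Higher in ESCC were 3 genes, Dusp1 (log2 fold change 2.96 ± 0.37, edgeR adjusted p = 1.77e-07), Junb (1.74 ± 0.35, edgeR adjusted p = 0.000214) and Jun (1.24 ± 0.31, edgeR adjusted p = 0.00241), as were 30.0% of all genes. Ier2 (-1.49 ± 0.29, edgeR adjusted p = 0.000179) and Egr1 (-0.89 ± 0.31, edgeR adjusted p = 0.0212) were lower, as were 11.7% of all genes. Fos, Fosb and Atf3 differed by -0.46 ± 0.30, -0.10 ± 0.39 and 0.28 ± 0.38 and did not pass. The median of all genes was 0.80 here, so that Jun lay 0.44 above it. Of all calls 72.0% were higher in ESCC, and 59.2% with mice scaled by total UMIs. Without the limits per cell Jun was no longer called (0.27, edgeR adjusted p = 0.382), and Egr1 was lost with thinned cells (-0.14, edgeR adjusted p = 0.806), with RLE factors (-0.55, edgeR adjusted p = 0.134), with DESeq2 (-0.56, adjusted p = 0.137), without the filter (-0.51) and without any 1 of E9, E12, T17F and T17M. Fos and Fosb passed as lower in ESCC without the limits per cell (-1.05 and -0.94), and Fos also with total UMIs (-0.88).

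Together the 10 genes held between 1.20% and 1.78% of the UMIs of the 6 control mice, 0.683 ± 0.207% in EoE (SD, n = 4) and 0.542 ± 0.135% in ESCC (SD, n = 3). No EoE or ESCC mouse reached the lowest control, at 1.20%. Shares of each gene among these UMIs do not depend on the scaling between mice. Dusp1 made up 9.2% to 14.6% in controls, 14.3% to 15.0% in ESCC and 0.61% to 3.21% in EoE. Ier2 made up 2.25% to 3.25% in controls, 3.96% to 4.63% in ESCC and 12.2% to 18.0% in EoE. Egr1 made up between 5.75% and 7.25% in ESCC and at least 9.76% in controls, and in EoE it was between 11.0% and 20.0%. Jun held 14.5% to 20.4% in controls, 21.2% to 23.4% in ESCC and 6.00% to 16.7% in EoE. Junb held 10.3% to 13.3% in ESCC and at most 5.77% in EoE, and Fos 27.2% to 29.5% and 38.0% to 53.0%. No count of overlapping or separate ranges was made over all genes, so these ranges cannot be set against a common share. The EoE shares rest on few UMIs of the 10 genes, from 50 in E11 to 221 in E10. In levels, 30.0% of all genes tested were called higher and 11.7% lower in ESCC than in EoE. The shares of a mouse add up to a whole, so a larger share of any gene lowers those of the others. These shares were looked at after the levels were known, as a description without a test.

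**Figure D3:**
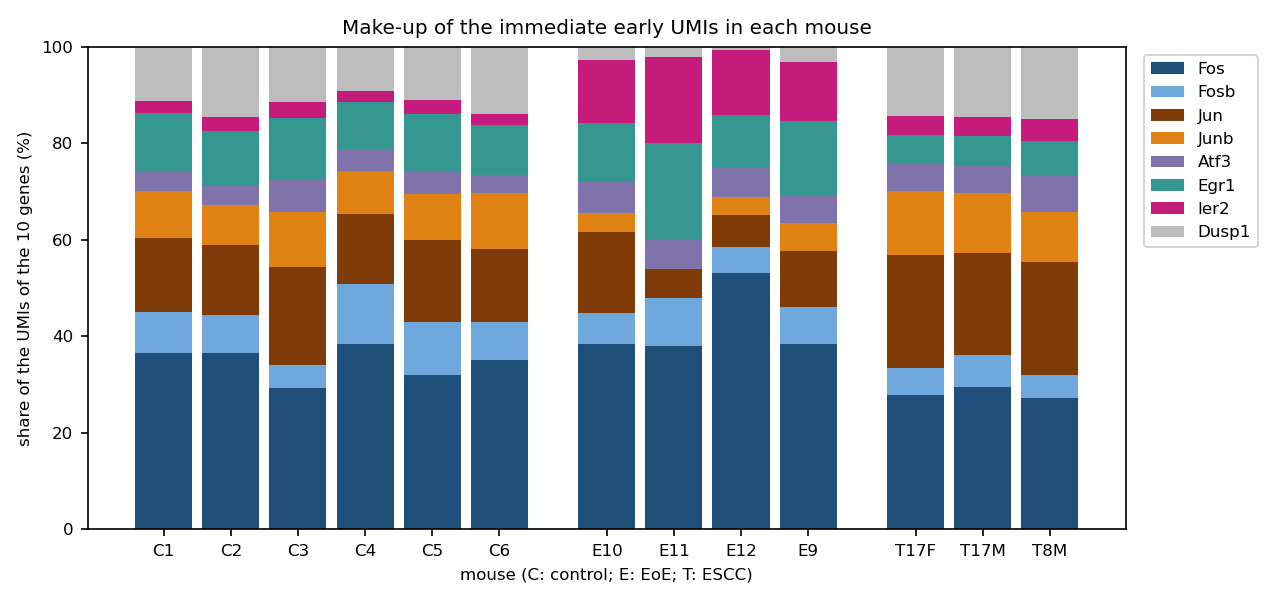
Share of each gene (colored segments, %) among the UMIs of the 10 genes in every mouse, in the order control, EoE, ESCC. Fosl1 and Jund are not drawn, having at most 2 UMIs in a group. Ier2 takes 12.2% to 18.0% in EoE mice and at most 4.63% elsewhere, and Dusp1 at most 3.21% in EoE mice.

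Stratified epithelium runs from basal cells, rich in the keratin Krt5, to superficial cells, rich in Krtdap. Control cells were clustered without the immediate early and related genes, and clusters were divided by the difference of Krt5 and Krtdap into a Krt5-high class, a strip where neither exceeded the other by over 0.3 in log10 units, and a Krtdap-high class. Cells of all mice took the class of their nearest control cells. The Krt5-high class also holds a cluster led by cell cycle genes such as Top2a, with no basal marker among its first 10 genes. In controls Krt5 was at 8571 ± 935 CPM in the first class and 745 ± 286 CPM in the last (SD, n = 6), and Krtdap at 214 ± 205 and 15286 ± 2268 CPM. The axis was also less clear in the diseases. In EoE, Krt5 was at 1940 CPM (19 UMIs) in the Krt5-high class. In ESCC, Krt5 was still at 5123 ± 2708 CPM (n = 3) in the Krtdap-high class. The Krt5-high class took 53.4 ± 9.8% of the cells of a control mouse, 72.3 ± 3.8% in ESCC (n = 3) and 15.7 ± 8.1% in EoE (n = 4).

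In control epithelium, 7 of the 8 genes were lower in the Krtdap-high than in the Krt5-high class (edgeR with the mouse as a block), as were 29.4% of 3107 genes. Atf3 differed most, at 950 ± 298 CPM in the first class and 365 ± 177 CPM in the last, with a log2 fold change of -1.36 ± 0.14 (edgeR adjusted p = 8.39e-19). Fosb went from 1767 ± 813 to 700 ± 334 CPM (-1.14 ± 0.12, edgeR adjusted p = 1.56e-18), and Jun from 2972 ± 708 to 1533 ± 338 CPM (-0.84 ± 0.11, edgeR adjusted p = 5.19e-13). Fos was between 5058 and 8141 CPM in the Krt5-high cells of the 6 mice (median 5777) and between 2741 and 4350 CPM in the Krtdap-high cells (median 3887). These ranges did not overlap (-0.58 ± 0.10, edgeR adjusted p = 1.54e-07). Junb, Dusp1 and Egr1 differed by -0.47 ± 0.11, -0.38 ± 0.11 and -0.32 ± 0.11, and the call of Egr1 was lost when each cell was classed by its own Krt5 and Krtdap UMIs. Ier2 did not pass (0.08 ± 0.16). It was the gene whose level turned on 1 mouse, since C3 had 886 CPM in the Krtdap-high class and the other controls 221 to 418 CPM. Without C3 the difference was -0.05.

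Between the Krt5-high class and the strip, most genes showed little difference. Ier2 was higher in the strip (567 ± 129 against 365 ± 81.6 CPM, log2 fold change 0.67 ± 0.17, edgeR adjusted p = 0.00136), and Atf3 was lower (703 ± 159 against 950 ± 298 CPM, -0.46 ± 0.15, edgeR adjusted p = 0.0150). These 2 of 8 stand against 20.4% of all genes called in either direction. Neither call held when cells were classed by their own 2 marker counts, and that of Atf3 was lost without C5 (-0.32, edgeR adjusted p = 0.174). The strip class held 8 to 93 cells per control mouse. The other 6 genes lay between -0.21 (Fosb) and 0.05 (Dusp1).

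**Figure D4:**
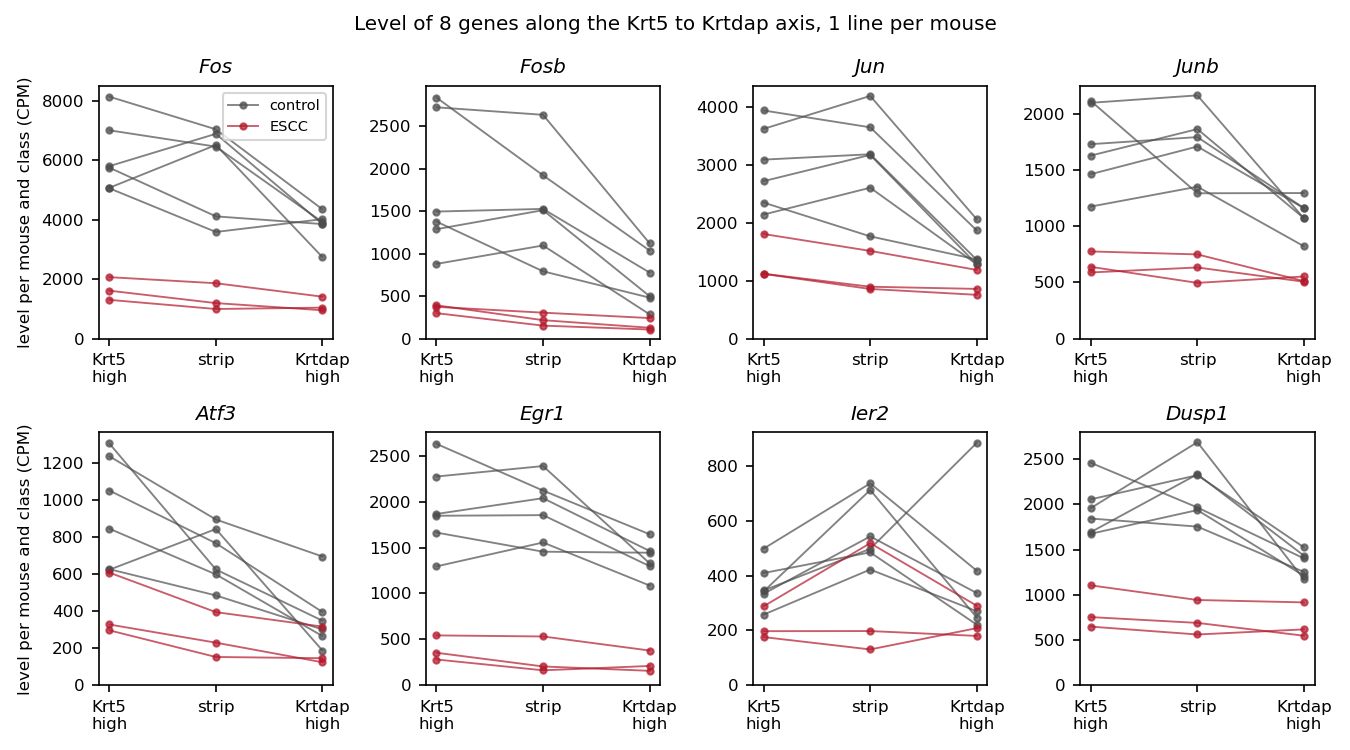
Level of 8 genes (CPM, linear axis from 0) in the Krt5-high, strip and Krtdap-high cells of each control (grey) and ESCC (red) mouse, 1 line per mouse. Control lines fall toward the Krtdap-high class for most genes. ESCC lines lie below all control lines for Fos, with overlap for Ier2 and Atf3 in T8M, and C3 stands out for Ier2 in the Krtdap-high class.

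The lower levels in ESCC held within the classes. In Krt5-high cells 7 of the 8 genes were lower than in controls, as were 14.4% of 3808 genes tested. In the strip all 8 were lower, as were 13.6% of 1579 genes, and in Krtdap-high cells 5 were lower, as were 12.2% of 3422 genes. Egr1 differed by -2.06 ± 0.25, -2.42 ± 0.30 and -2.26 ± 0.26 in the 3 classes (edgeR adjusted p = 1.70e-06, 7.59e-08 and 3.65e-07). Fosb differed by -2.09 ± 0.30, -2.64 ± 0.31 and -2.02 ± 0.35 and Fos by -1.65 ± 0.22, -1.85 ± 0.27 and -1.52 ± 0.22, and all of these passed. In ESCC mice Fos was at 1302, 1611 and 2065 CPM in the Krt5-high cells of T17F, T17M and T8M, below the lowest control at 5058 CPM. In their Krtdap-high cells it was at 1040, 951 and 1408 CPM, below the lowest control at 2741 CPM.

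Smaller differences were lost in single classes. Ier2 passed in the strip alone (-0.82 ± 0.32, edgeR adjusted p = 0.0485), and there it lost the call without any 1 of 8 of the 9 mice. Atf3 and Jun did not pass in Krtdap-high cells (-0.56 ± 0.30, edgeR adjusted p = 0.182, and -0.48 ± 0.22, edgeR adjusted p = 0.110). Without T8M both did (-1.09 and -0.69). Dusp1 lost its call there without T17F or T17M, and in Krt5-high cells Atf3 lost it without T17F, while Ier2 gained it without C6 or T8M. Whether the step from Krt5-high to Krtdap-high cells itself differed in ESCC was tested by an interaction, which 0 of the 8 genes passed in edgeR and 0 in DESeq2, while 3.57% of 5325 genes did. Jun alone had an unadjusted p under 0.05 (0.49 ± 0.18, edgeR adjusted p = 0.134).

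EoE cells were too few to fit by class, with 26 Krt5-high, 48 strip and 69 Krtdap-high cells, so the UMIs of the 4 mice were summed, with exact Poisson intervals that cover counting error only. Fos was at 4492 CPM (95% interval 3264 to 6030, 44 UMIs) in Krt5-high cells, 4296 CPM (3480 to 5247) in the strip and 1686 CPM (1387 to 2030) in Krtdap-high cells. Its lowest control values in these classes were 5058, 3587 and 2741 CPM, so that the EoE value of the strip lay within the control range and that of the Krtdap-high cells below it. Dusp1 had 3, 2 and 8 UMIs in the 3 classes, or 306 (63.2 to 895), 89.5 (10.8 to 323) and 122 (52.5 to 239) CPM, and even the upper bounds lay below the lowest control in each class (1675, 1755 and 1171 CPM). Ier2 was at 817 (353 to 1609), 895 (547 to 1382) and 775 (577 to 1019) CPM. Its highest controls in these classes were 499, 738 and 886 CPM, and each interval reached below these. The 886 CPM is that of C3 alone, from 28 UMIs. The other controls of the Krtdap-high class were at 221 to 418 CPM, below the EoE interval.

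The wider pathway was read from lists of other genes. Of 35 other immediate early genes, 28 were tested in ESCC, of which 13 fell (46.4%) and 4 rose (14.3%), with a median log2 fold change of -0.60. Of all genes tested 16.4% fell and 18.0% rose, and the counts of each list are to be read against these shares. Egr3, a relative of Egr1, fell by 2.64 on the log2 scale (50.4 ± 19.8 CPM in controls, 6.32 ± 0.485 in ESCC), the small Maf factor Maff fell by 2.15 and the antiproliferative gene Btg1 fell by 1.70. Of 13 other MAP kinase feedback inhibitors 8 were tested and 4 fell, among them Spry1 (-2.55 ± 0.34), Dusp5 (-1.20 ± 0.35) and Spred2 (-0.99 ± 0.22). Of 7 other AP-1 subunits 3 were tested and none passed. Of 18 MAP kinases and upstream factors 13 were tested, 2 fell (15.4%) and 1 rose (7.69%), neither above the shares of all genes. Mapk3, which encodes ERK1, fell by 1.18 and Map2k1, which encodes the kinase MEK1, fell by 0.68, while Mapk9, which encodes the Jun kinase JNK2, rose by 0.79. Of 15 known AP-1 targets 7 were tested. Hbegf, a ligand of the EGF receptor, fell by 1.40, and Hmox1 and Vegfa, which encode heme oxygenase and a vascular growth factor, rose by 2.37 and 1.21, with 1 further gene up. Of 10 heat shock genes 6 rose and none fell, with Hspb1 at 3.03, Hspa8 at 2.79 and Hsp90aa1 at 0.91.

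In EoE the same lists gave another picture, with the median of all genes at -0.74 and 24.9% of all genes lower and 9.5% higher. Of the other immediate early genes 5 rose and 6 fell of 28 tested (median -0.32, or -0.13 with genes that had no EoE UMI at their bound). The matricellular gene Ccn1 was at 19.8 ± 23.8 CPM in EoE, from 3 UMIs, against 224 ± 117 CPM in controls (log2 fold change -2.98 ± 0.90). Csrnp1 was at 19.9 ± 26.4 CPM, from 2 UMIs, against 116 ± 34.7 CPM (-2.68 ± 0.82). Ier5l had none and was at least 1.29-fold lower, against a floor of 3 UMIs over the group. Dusp5, a nuclear phosphatase of ERK, rose by 2.07 ± 0.53 on the log2 scale (36.6 ± 20.5 CPM in controls, 167 ± 36.7 in EoE), whereas Spred2 had 3 UMIs and fell, and these were the only 2 of 8 tested feedback inhibitors to pass. Upstream, 6 of 13 fell and 2 rose (median -1.24, or -0.56 with genes that had no EoE UMI at their bound). Mapk3 had no UMI and was at least 4.12-fold lower, Srf, the serum response factor, at least 1.48-fold, and the ternary complex factor Elk4 had 1 UMI. The AP-1 subunit gene Atf7 had 1 UMI and was the only one of 3 other AP-1 subunits to pass, as a fall. Among 7 AP-1 targets, Hbegf rose to 2221 ± 1103 CPM from 440 ± 148 CPM (1.89 ± 0.25) and Ccnd1, the cyclin D1 gene, had no UMI and was at least 5.20-fold lower, with 1 further gene up. Of the heat shock genes, Hspb1 (3.00) and Hspa1b (0.85) rose, and 2 fell, among them Hspe1 (-1.02).

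Within the 9 control and ESCC mice, with group means removed, the gene closest to Fos in level was Pank3 (Pearson r = 0.92), then Mgst1 (0.92) and Cnot6l (0.90), of 3690 genes at 50 CPM or more. Jun went most closely with Fbp2 (0.97), Ccn1 (0.95) and Etnk1 (0.93), and Dusp1 with Crip1 (0.94), Cavin1 (0.93) and Appl1 (0.88). Among the 8 genes themselves, Jun had an r of 0.98 with Atf3, 0.96 with Ier2 and 0.92 with Egr1, but 0.56 with Fos and 0.19 with Fosb. Fos was closest to Fosb (0.76). These mice differ in depth and age, and the correlations are a description over 9 points.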

How the data were processed

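Epithelial cells of 13 mice (6 control, 4 EoE, 3 ESCC) were profiled in 22 inDrop libraries. The deposited values are UMI counts per gene and cell, without normalization. Per the labels, the authors used UMI-tools 1.0.0, STAR 2.7.3 and featureCounts with GRCm38. Mice were read from the sample titles. Cells with 250 to 3500 genes and 100 to 9500 UMIs were used, without those called non-epithelial by at least 3 marker UMIs that exceeded the keratinocyte marker UMIs. Doublets were not called here. Counts were summed per mouse, or per mouse and class, and tested in R 4.3.3 with edgeR 4.0.16 (filterByExpr, TMM, quasi-likelihood, Benjamini-Hochberg over all genes, threshold 0.05), with DESeq2 1.42.0 as an alternative. Classes came from scanpy 1.11.5: 10000 UMIs per cell, 2000 variable genes without the pathway lists, 50 components, 15 neighbors and Leiden resolution 1, with 15 nearest control cells of other mice. The fit was tested on simulated data. Levels are plain CPM, and fold changes use TMM scaling. Named beside the 10 genes are Krt5, Krtdap, defining markers, up to 3 genes per list with the largest change past the threshold at an average log2 CPM of at least 5, and 3 genes nearest to each of the 3 genes with the most UMIs. The genes and lists were chosen with earlier results of these data known. Mice are the replicates, and p-values between conditions or ages rest on the spread between them. Tests between classes of control cells and of the interaction have the mouse as a block. Their p-values rest on what is left within mice, and every fit also draws on the spread of other genes. Alternatives covered cells, scaling, tool, filter, classes, covariates and each mouse left out. GENCODE M21 and RefSeq gave annotation.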

Additional observations from a re-analysis of the deposited data

Results flagged for a closer look

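Ier2 in the EoE cells outside the limits on genes and UMIs stood above the level in control cells. In the EoE cells outside the limits, which held 198855 UMIs, Ier2 was at 1350 ± 405 CPM (SD, n = 4 mice), from 909 to 1865 CPM. The control mice reached at most 513 CPM. In the same EoE cells Dusp1 was at 155 ± 87.7 CPM and Junb at 182 ± 10.8 CPM, against at least 1543 and 1124 CPM in control mice.

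Single mice stood apart from their group in 3 of 40 levels looked at, where chance gives about 1 in 20. Dusp1 in EoE mouse E12 was at 55.7 CPM, from 1 UMI, and at 143 to 160 CPM in the other EoE mice. Divided by the TMM factors it was 38.3 in E12 and 65.6 in E11. Fos in the Krtdap-high cells of control mouse C6 was at 2741 CPM, and at 3852 to 4350 CPM in the other controls. Ier2 in the Krtdap-high cells of control mouse C3 was at 886 CPM, from 28 UMIs, and at 221 to 418 CPM in the other controls.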

How the results depend on the processing

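Of 958 refitted fold changes, 884 kept their direction and their side of the threshold, 55 lost a call, 7 gained one and 12 changed sign. The number of genes called between ESCC and control mice was 4 to 8 with 1 mouse left out, against 8. Between the strip and the Krt5-high class it was 2, and 1 to 2 with 1 mouse left out, 0 with cells classed by their own Krt5 and Krtdap UMIs, 1 with DESeq2, 1 without the filter on low counts and 1 without the mouse as a block, a pairing given by cells of 1 mouse. The other counts stayed within 1.5 times. The changes of sign were in values that passed no test. Between ESCC and EoE, Atf3 (0.28) became -0.65 without the limits per cell, -0.072 with total UMIs and -0.011 to 0.61 with 1 mouse left out. Fos (-0.46) became 0.36 with thinned cells. Fosb (-0.10) became 0.55 with thinned cells, 0.24 with RLE, 0.22 with DESeq2, 0.26 without the filter, 0.021 with only the 2 groups and -0.24 to 0.16 with 1 mouse left out. With 1 mouse left out, Dusp1 between old and young controls was -0.0075 to 0.14, and Ier2 between Krtdap-high and Krt5-high cells -0.053 to 0.23. The cause was not tested.

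Over all genes, 2016 calls between ESCC and controls became 923 with thinned cells, where fewer genes were tested. Between EoE and controls 2019 became 1302 with thinned cells, 3034 without the limits per cell and 1112 without E10. Between ESCC and EoE 2445 became 1423 with thinned cells, 677 with only the 2 groups and 1571 without E10. Between ages 5 became 0 to 24. Between the strip and the Krt5-high class 634 became 341 by own UMIs and 421 without the block, and between the Krtdap-high and Krt5-high classes 1764 became 2717 without the filter. Within classes, 1174 became 1841 without the filter and 767 without T17F, 496 became 827 without the filter, 940 became 563 by own UMIs, and 190 interactions became 67 by own UMIs, 110 with DESeq2, and 115, 118 and 69 without C1, C6 and T17M. EoE values rest on 97975 UMIs, so that counts under 10 limit Dusp1 and Junb in each mouse, while ESCC mice were sequenced most deeply. Total-UMI scaling was chosen after the data were seen.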
